A study of Mus musculus with 23 samples.

Results

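The genes of the translation initiation and elongation factors were followed through maps of RNA contacts of CTCF in mouse cells. Members were all protein-coding genes of the mm10 annotation whose symbol starts with Eif or Eef followed by a digit, which gave 68 of 21938 protein-coding genes. The rule uses no measured value, although it was chosen with earlier results of these data known. The sites came from iCLIP2, in which UV light joins a protein to RNA in living cells, the protein is immunoprecipitated, and reverse transcription stops at the joined base, so that each crosslink site is 1 nucleotide on 1 strand.

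All samples came from E14Tga2 mouse embryonic stem cells (ESCs) in which the endogenous CTCF carries an mAID-eGFP degron and was removed with 1 µM 5-Ph-IAA, while a Flag-Halo CTCF transgene (promoter pTRE3G, at the Tigre locus; OsTIR1 at Rosa26) was switched on by 1 µg/mL doxycycline, over 24 hours in all. Degron, inducer and rescue were therefore shared by every group, controls included, and the Flag antibody was directed at the rescue protein. The rescue was WT CTCF or CTCF lacking zinc finger 1 (ΔZF1), and cells were kept as ESCs or differentiated for 2 days to neural progenitor cells (NPCs). UV-treated cells received 400 mJ/cm2 at 254 nm, and non-crosslinked WT rescue cells of both types gave the background. WT and ΔZF1 lines were 1 homozygous clone each, so clone and allele cannot be told apart. The 23 libraries (4 per group, 3 for WT NPCs) were merged within each group before sites were called, which left 1 list per group and no replicates. No test between conditions was therefore possible, and all intervals are 95% intervals of counting error.

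Translation starts when eIF2 brings the initiator tRNA to the small ribosomal subunit, held there with eIF1, eIF1A, eIF3 and eIF5, and when the cap-binding eIF4E, the scaffold eIF4G and the RNA helicase eIF4A load the mRNA. In elongation, eEF1A delivers charged tRNAs, the eEF1B subunits recharge it with GTP, and eEF2 moves the ribosome along. The pathway is slowed by kinases that phosphorylate eIF2α and by eIF4E-binding proteins. The mRNAs of many of these factors begin with a C and a run of pyrimidines, the 5′ terminal oligopyrimidine (TOP) element, through which mTOR controls their translation, and introns of several host small nucleolar RNAs. The factor proteins act mostly in the cytoplasm, whereas the immunoprecipitated RNA was nuclear.

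Of the member sites, 3 kinds are shown as sequence. They cover a small part of all sites, most of which recurred in no other list. Shown first are positions that recurred in 5 or 6 of the 6 lists and lay directly before a pyrimidine run in a 5′ UTR. Of those shown, only the Eef1b2 and Eif3k positions were within 5 bases of an annotated transcript start. The run is in capitals as far as the window of 10 bases on each side reaches (genome GRCm38/mm10, gene strand, 5′ to 3′, T for U). The site is base 11 of each window. The windows are chr9:78481662-78481682 (minus) for Eef1a1, chr1:63177118-63177138 (plus) for Eef1b2, chr10:81176635-81176655 (plus) for Eef2, chr15:51865475-51865495 (minus) for Eif3h, chr7:28981790-28981810 (minus) for Eif3k and chr15:102073912-102073932 (plus) for Eif4b.
Eef1a1: ccttggacgttCTTTTTCgca
Eef1b2: acgctctgggtCCTTTTTTTC
Eef2: acgtcagcggtCTCTTCCgcc
Eif3h: cgcctcacgctTCTCTTTCTT
Eif3k: ctctcttccggTCCTCTagtg
Eif4b: ctcatccgggtCCTTTgcgtt

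The second kind stood at the 5′ end of a small RNA inside the factor gene and was also present in the non-crosslinked lists. The site is the capital base in the windows chr7:111076217-111076237 (minus, Gm23262 in Eif4g2), chr11:69668986-69669006 (minus, Gm25835 in Eif4a1), chr10:81178938-81178958 (plus, Snord37 in Eef2) and chr1:63178993-63179013 (plus, Snora41 in Eef1b2). All 4 lie in introns.
Eif4g2: cagaagtctcTtgcccgatga
Eif4a1: agaactgagtTgctctgtgat
Eef2: gaatctctgaCccaccatgat
Eef1b2: tattttaaaaCttccacagct

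The third kind was a uridine inside a coding exon, found in UV lists and in neither non-crosslinked list. The capital base is again the site, in the windows chr9:78479877-78479897 (minus, Eef1a1), chr11:69919293-69919313 (minus, Eif5a), chr16:20681838-20681858 (plus, Eif4g1) and chr15:43272291-43272311 (minus, Eif3e). The last 3 of these were in all 4 UV lists. All 3 kinds were picked after their values had been seen.
Eef1a1: aatttctggtTggaatggtga
Eif5a: ggcagatgatTtggacttcga
Eif4g1: agagaaggctTggaaacccag
Eif3e: aggatgttatTtgactacctg

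The factor genes held 4062 sites in WT ESCs, 1898 in ΔZF1 ESCs and 1252 in non-crosslinked ESCs. In NPCs they held 2143 in WT, 1258 in ΔZF1 and 783 without UV. These numbers followed the size of the lists, which held 429119, 217770 and 150821 sites inside genes in ESCs and 230147, 153211 and 102002 in NPCs. As a share of genic sites, the members took 0.947% in WT ESCs, 0.872% in ΔZF1 ESCs and 0.830% in non-crosslinked ESCs, and 0.931%, 0.821% and 0.768% in the same order in NPCs. Read depth is unknown from site lists, and the number of sites in a gene cannot be told apart from the amount of its RNA, which was not analysed here. In these bulk lists, fewer cells of a type and less RNA per cell also cannot be told apart. Of 5 pluripotency genes used to check the labels, Esrrb held 460 sites in WT ESCs and 0 in WT NPCs, and Klf4 held 66 and 0. Of 5 neural genes, Nes held 2 sites in WT ESCs and 28 in WT NPCs, but Sox1, Pax6, Hes5 and Zic1 held none in any NPC UV list.

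Sites were spread over nearly the whole pathway. At least 5 sites were held by 59 members in WT ESCs and by 58 in WT NPCs, and 49 members reached 5 in all 4 UV lists. Without UV, 54 members reached 5 sites in ESCs and 45 in NPCs, so the background was spread widely too. The share of all genes that reached 5 sites is not given here. The 4 members with no site in any list were Eef1a2 (the muscle and neuron form of eEF1A), Eif2s3y (the Y-linked eIF2γ), Eif4e1b (an oocyte form of eIF4E) and Eef1akmt3 (an eEF1A lysine methyltransferase). The remaining 64 members held at least 1 site somewhere. The median member held 44 sites in WT ESCs and 27.5 in WT NPCs.

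**Figure D1:**
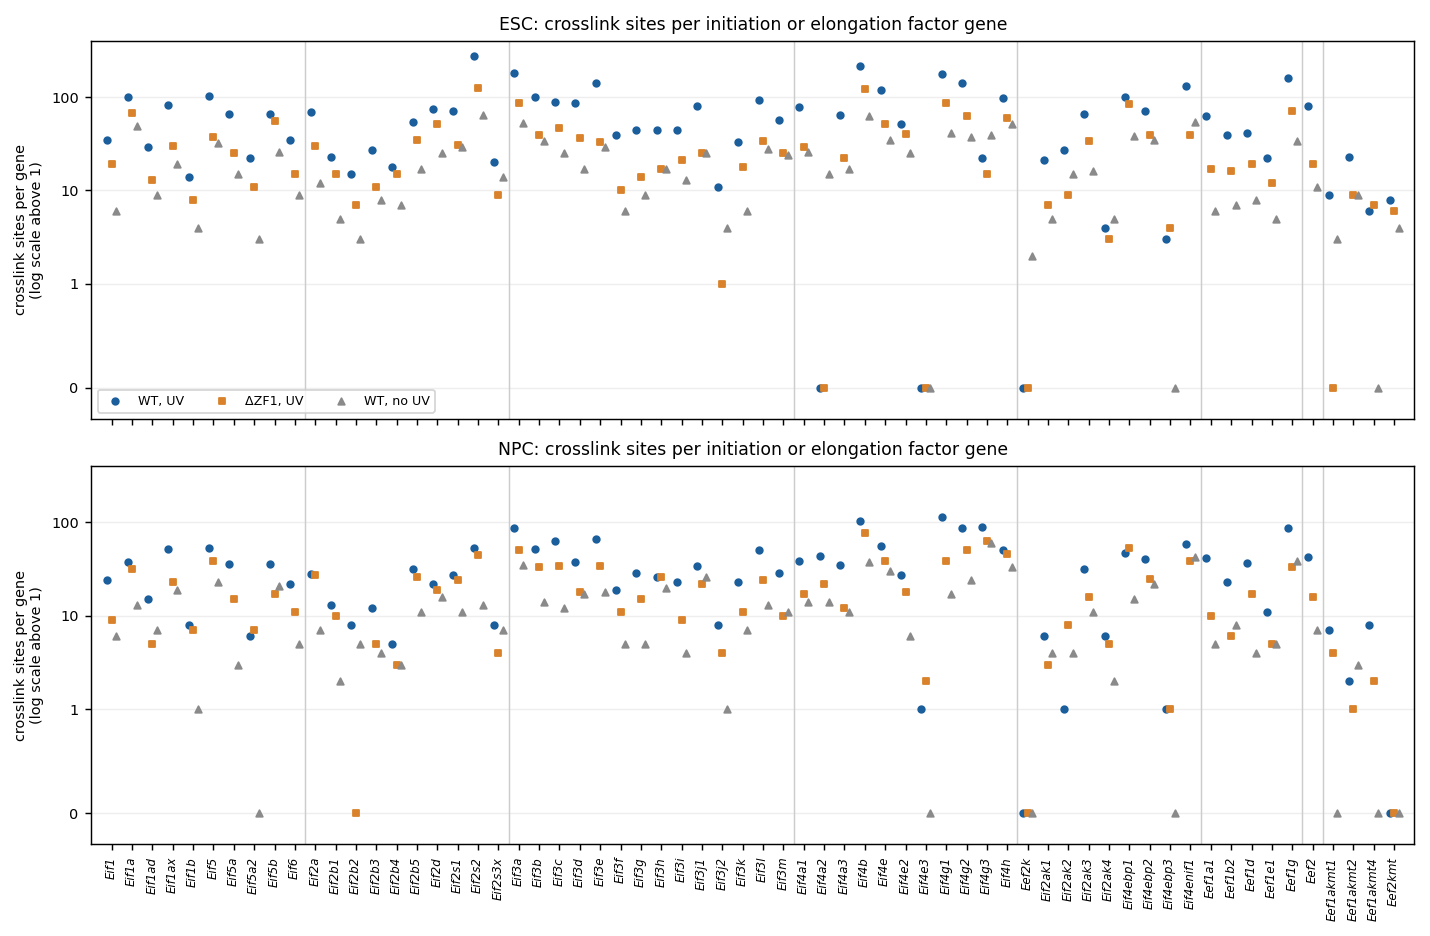
Crosslink sites per factor gene (y axis, logarithmic above 1) in ESCs (top) and NPCs (bottom), with WT as circles, ΔZF1 as squares and non-crosslinked cells as triangles. The 64 genes with a site are ordered by role, split by grey lines, and WT lies above the non-crosslinked count in 59 members in ESCs and 60 in NPCs.

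The genes with most sites belonged to eIF2, eIF4, eIF3 and eEF1. Eif2s2, the β subunit of eIF2, held 272 sites in WT ESCs, 124 in ΔZF1 ESCs, 64 in non-crosslinked ESCs, and 53, 45 and 13 in NPCs in the same order. It led the WT ESC list and was not among the 5 highest in WT NPCs. Eif4b, a cofactor of the eIF4A helicase, held 215, 122 and 63 sites in ESCs and 104, 76 and 38 in NPCs. Eif3a, the large eIF3 subunit, held 179, 87 and 53 against 86, 51 and 35. Eif4g1, the main scaffold of cap-dependent initiation, held 175, 87 and 41 sites in ESCs and 114, 39 and 17 in NPCs, the highest count in WT NPCs. Eef1g, the γ subunit of eEF1B, held 159, 71 and 34 against 87, 33 and 39, so that its non-crosslinked NPC list was above its ΔZF1 list.

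Per kilobase of exon, levels in WT ESCs were highest in Eef1g with 25.8 sites, Eif3b with 24.5, Eif3c with 22.8, Eif3l with 21.98, Eif4a3 and Eif3g with 21.7 each and Eef1a1 with 21.3. These genes held between 43 and 82 exon sites each, so neighbours in this order are not separated beyond counting error. By role, exon density in WT ESCs was 19.0 sites per kb for Eef2, 13.5 over the 14 eIF3 genes, 10.8 over the 6 eEF1 genes, 8.67 over the 12 eIF4 genes and 8.17 over the 11 eIF2 genes. The 5 methyltransferases that modify eEF1A and eEF2 were lowest, at 3.81 per kb.

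UV light was compared with its absence to separate crosslinks from background. Without scaling, WT held more sites than the non-crosslinked list in 59 members in ESCs and in 60 in NPCs, the lists themselves differing in size. After scaling to genic sites, the summed sites of the members were higher with UV by 0.19 on the log2 scale (0.10 to 0.28) in ESCs and by 0.28 (0.16 to 0.40) in NPCs. Single genes were compared with a pseudocount of 1 where both lists summed to 20 sites or more, and a gene was past the limit when its scaled log2 ratio was at least 1 or at most -1. In ESCs 4 of 53 members were past the upper limit and 2 past the lower, or 7.55% and 3.77%, against 8.12% and 6.60% of all 6208 genes tested. In NPCs 8 of 45 were past the upper limit, 17.8% against 10.5% of 4765 genes, and 0 past the lower, against 6.51%. The ESC shares were thus near or below those of all genes. Median log2 ratios over members were 0.23 in ESCs and 0.30 in NPCs, beside 0.02 and 0.03 over all genes.

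Of the elongation factors, Eef1a1 and Eef2 were past the upper limit in both cell types, while Eef1g gave a log2 ratio of 0.68 in ESCs and -0.04 in NPCs, and Eef1b2 0.81 and 0.24. Eef1a1, which carries tRNAs to the ribosome, held 62 sites in WT ESCs against 6 without UV, and 41 against 5 in NPCs. Its scaled log2 ratio was 1.66 (0.68 to 3.04) in ESCs and 1.63 (0.57 to 3.16) in NPCs, the highest in ESCs among members with at least 20 sites. Eef2, the translocase, held 80 sites against 11 in ESCs and 42 against 7 in NPCs, with log2 ratios of 1.25 and 1.25. With uridine sites alone Eef2 no longer passed the limit in either cell type. In NPCs, Eif5a, which helps ribosomes over proline stretches, held 36 sites with UV and 3 without, a log2 ratio of 2.04 (0.80 to 4.03), and Eef1d, the δ subunit of eEF1B, held 37 and 4, a log2 ratio of 1.75. In ESCs the same genes gave 65 and 15 sites for Eif5a, and 41 and 8 for Eef1d.

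Other members past the upper limit were initiation factors. Eif4g1 reached a log2 ratio of 1.50 (0.84 to 2.30) in NPCs and 0.56 in ESCs. The eIF3 subunit genes Eif3g, Eif3c and Eif3i gave 1.15, 1.13 and 1.09 in NPCs, and Eif3f gave 1.01 in ESCs. The intervals of Eif3i and Eif3f included 0, and Eif3f was inside the limit when scaled by the median ratio. Eif5a2, a second eIF5A gene, gave 1.02 in ESCs from 22 sites against 3, with an interval of -0.28 to 3.02 that includes 0. It was inside the limit when scaled by the median ratio or to the own chromosome.

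Lower with UV in ESCs were Eif4g3, a paralog of Eif4g1, and Eif2s3x, the X-linked eIF2γ. Eif4g3 held 22 sites in WT ESCs and 39 in non-crosslinked ESCs, a scaled log2 ratio of -2.31 (-3.08 to -1.59), the lowest among members with at least 20 sites. Eif2s3x held 20 and 14, a log2 ratio of -1.02 (-1.96 to -0.03). It was not among those past the limit with scores under the median left out, with uridine or exon sites alone, or with a minimum of 50 sites. Next came Eif2ak2 at -0.70, inside the limit. In NPCs the lowest ratios were -0.81 for Eif3h, -0.80 for Eif3j1 and -0.74 for Eif2d, all inside the limit. With sites under the median score of 3.02 left out, the members past a limit in ESCs numbered 16 of 46 instead of 6 of 53. Of these, 14 were higher and 2 lower, against 11.3% and 7.56% of 4245 genes at that setting.

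The base at the site separated UV from no UV more than the number of sites did. Uridine made up 64.5% of member sites in WT ESCs (63.0 to 65.9), 53.2% in ΔZF1 ESCs (51.0 to 55.5) and 29.6% without UV (27.1 to 32.1). In NPCs it made up 70.0% in WT (68.0 to 71.9), 61.0% in ΔZF1 (58.2 to 63.6) and 27.7% without UV (24.7 to 31.0). Non-crosslinked sites were close to the uridine share of the sequence itself, 26.4% in the members' exons and 29.4% in their introns. Sites on uridine were 7.08 times as many in WT ESCs as without UV (6.35 to 7.89), and sites on other bases 1.64 times (1.51 to 1.78). In NPCs these ratios were 6.91 (5.99 to 7.96) and 1.14 (1.02 to 1.27).

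The enrichment held gene by gene. Among members with at least 10 sites in both lists, the uridine share was higher with UV in 36 of 37 in ESCs, the exception being Eif2a, and in 31 of 31 in NPCs. All other genes gave 98.5% and 99.0% by the same count, so the difference was not particular to the members. In Eef1a1 uridine made up 74.2% of the 62 WT ESC sites and 80.5% of the 41 WT NPC sites. In Eif4g3, the gene that was lower with UV in ESCs, it made up 40.9% of WT ESC sites and 63.3% of WT NPC sites.

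**Figure D2:**
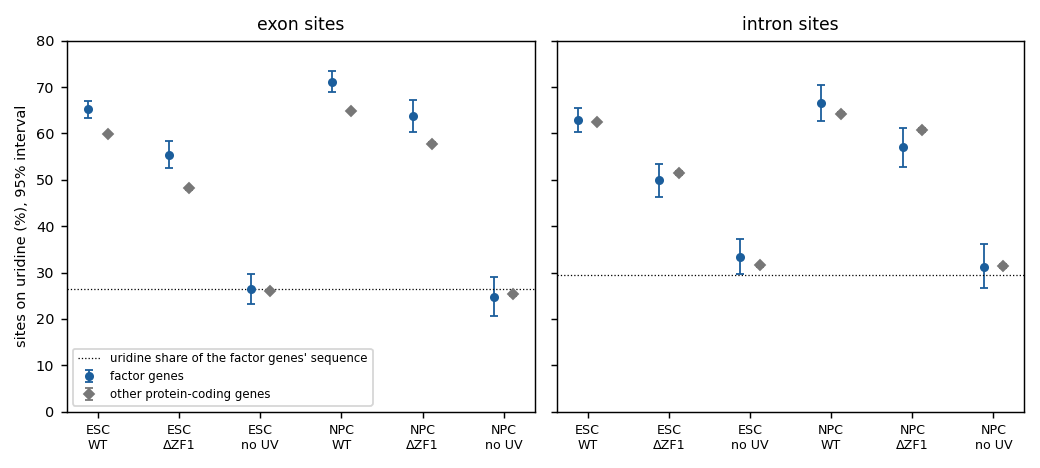
Share of sites on uridine in percent (y axis) for factor genes (circles) and other protein-coding genes (diamonds) in the 6 lists, for exon sites (left) and intron sites (right), with 95% counting intervals and the uridine share of the factor genes' sequence dotted. Exon sites of the factor genes lie above those of other genes in the 4 UV lists and near them in both non-crosslinked lists.

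Exon sites of the members carried more uridine than those of other protein-coding genes. The shares were 65.2% against 59.8% in WT ESCs, 55.5% against 48.2% in ΔZF1 ESCs, 71.2% against 64.8% in WT NPCs and 63.7% against 57.8% in ΔZF1 NPCs, and the intervals did not overlap in any of these 4 lists. Without UV they were 26.4% against 26.0% in ESCs and 24.6% against 25.3% in NPCs, within the intervals. Exon sites of ribosomal protein genes gave 64.7%, 58.3%, 70.95% and 62.65% in the same 4 UV lists, and those of proteasome genes gave 64.7%, 50.75%, 70.4% and 60.9%. The intervals of both groups overlapped those of the members in all 4 lists, so the higher share was not particular to the factor genes. In introns the members gave 62.9% in WT ESCs and 66.7% in WT NPCs, beside 62.4% and 64.3% elsewhere, with overlapping intervals. The uridine peak spanned few bases. In WT ESC exons it was 33.9% at 2 bases before the site, 54.5% at 1 base before, 65.2% at the site and 34.0% at 1 base after.

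**Figure D3:**
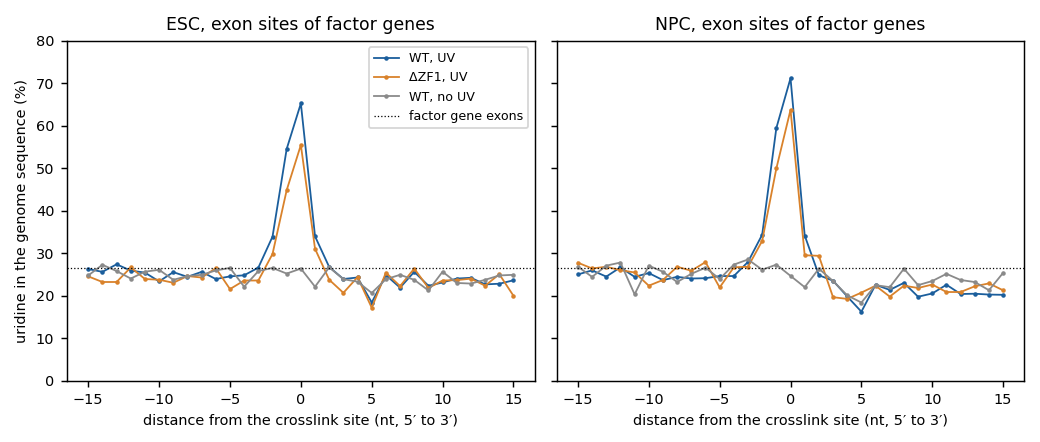
Uridine share of the genome sequence in percent (y axis) by distance in nucleotides from exon sites of the factor genes (x axis) in ESCs (left) and NPCs (right), with the share over all their exons dotted. WT and ΔZF1 peak at the site, at 65.2% and 55.5% in ESCs and 71.2% and 63.7% in NPCs, and the non-crosslinked lists show no peak.

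The ΔZF1 rescue was compared with WT to see which contacts depend on zinc finger 1. Without scaling, 59 members held fewer ΔZF1 than WT sites in ESCs and 56 in NPCs, the ΔZF1 lists being smaller. After scaling, the summed sites of the members were still lower, by -0.12 on the log2 scale (-0.20 to -0.04) in ESCs and -0.18 (-0.28 to -0.08) in NPCs. In ESCs 0 of 55 members were past the upper limit and 2, or 3.64%, past the lower, against 6.84% and 5.45% of 6518 genes. In NPCs 0 of 46 were past the upper and 2, or 4.35%, past the lower, against 5.76% and 7.36% of 5274 genes. Member medians were -0.17 in ESCs and -0.30 in NPCs, beside 0.04 and -0.04 over all genes. Cytosolic ribosomal protein genes gave -0.19 and -0.66, and proteasome genes -0.42 and -0.32, so a lower median was shared with other gene groups. With sites under the median score left out, 5 of 45 members were past the lower limit in ESCs and 2 past the upper, against 6.001% and 6.73% of 4399 genes, and in NPCs 11 of 41 were past the lower limit, against 9.81% of 3049 genes.

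The 4 members past the lower limit are among the 9 listed genes whose mRNAs are known to carry a 5′ TOP element, but this depended on the setting. In each cell type the share of members past that limit was below the share of all genes. With sites under the median score left out, the 5 members past the lower limit in ESCs were Eef2 and Eif3e, which are listed, and Eif3m, Eif4a3 and Eif4enif1, which are not. The 11 in NPCs were Eef1a1, Eef1b2, Eef1d, Eef1g and Eef2, which are listed, and Eif3a, Eif3m, Eif4a1, Eif4g1, Eif5a and Eif6, which are not. Genes not listed also passed the lower limit with exon sites alone (Eif1ax, Eif4g1 and Eif5a in NPCs), with uridine sites alone or scaling to the own chromosome (Eif4g1 in NPCs), and with a minimum of 10 sites (Eif3j2 in ESCs). Eif3e, an eIF3 subunit, held 140 sites in WT ESCs, 33 in ΔZF1 ESCs and 29 without UV. Its ΔZF1 to WT log2 ratio was -1.07 (-1.65 to -0.56) in ESCs, and it no longer passed the limit with exon sites alone or with uridine sites alone. In NPCs, with 67 and 34 sites, its interval included 0. Eef2 held 80, 19 and 11 sites in ESCs and 42, 16 and 7 in NPCs, with a ΔZF1 to WT log2 ratio of -1.04 (-1.81 to -0.38) in ESCs, past the limit under each alternative tried.

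Eef1a1 held 62, 17 and 6 sites in ESCs and 41, 10 and 5 in NPCs. The ΔZF1 to WT log2 ratio of Eef1a1 was -0.83 (-1.65 to -0.12) in ESCs and -1.35 (-2.43 to -0.47) in NPCs, below 0 in both. Eef1b2, the subunit that exchanges GDP on eEF1A, held 39, 16 and 7 sites in ESCs and 23, 6 and 8 in NPCs. Its log2 ratio in NPCs was -1.19 (-2.61 to -0.10), and it no longer passed the limit when sites shared with a second gene were left out, with exon sites alone or with a minimum of 50 sites. Over the 9 listed TOP genes, the median was -0.34 in ESCs with 8 of 9 below 0, and -0.49 in NPCs with 7 of 9 below 0. Below 0 were also 36 of 55 members, 35 of 41 proteasome genes and 3106 of 6518 genes in all in ESCs, and 30 of 46 members, 61 of 68 ribosomal protein genes and 2771 of 5274 genes in all in NPCs.

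Next in rank came Eif3f in ESCs, at a ΔZF1 to WT log2 ratio of -0.88 (-1.97 to -0.002), and Eif4g1 in NPCs. Eif4g1 fell in scaled sites by 0.94 on the log2 scale in NPCs, with an interval of -1.48 to -0.44 below 0, and its ESC counts of 87 in ΔZF1 and 175 in WT followed the size of the lists. The 5 members on chromosome 11 (Eif1, Eif4a1, Eif4a3, Eif5a and Eif4enif1) share a chromosome whose genes had a median ΔZF1 to WT log2 ratio of -0.61 in NPCs and -0.47 in ESCs. Scaling each gene to its own chromosome left Eef1a1 and Eef1b2 past the lower limit in NPCs and added Eif4g1.

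Highest under ΔZF1 in both cell types was Eif4ebp1, which encodes the inhibitor of eIF4E that mTOR switches off. It held 99 sites in WT ESCs, 84 in ΔZF1 ESCs and 38 without UV, and 47, 53 and 15 in NPCs. Its ΔZF1 to WT log2 ratio was 0.74 (0.32 to 1.16) in ESCs and 0.76 (0.20 to 1.32) in NPCs, with both intervals above 0 and both values inside the limit. In ESCs Eif4ebp1 passed the upper limit with uridine sites alone. It also passed with sites under the median score left out, as did Eif5b. The genes of its chromosome had a median of 0.18 in ESCs and 0.04 in NPCs. In ESCs Eif5b, which joins the ribosomal subunits, gave 0.72 (0.20 to 1.23), and Eif2b4, a subunit of the exchange factor of eIF2, gave 0.73 with an interval of -0.26 to 1.69 that included 0. In NPCs Eif3h gave 0.59 and the alternative initiation factor Eif2a 0.54, both with intervals that included 0.

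**Figure D4:**
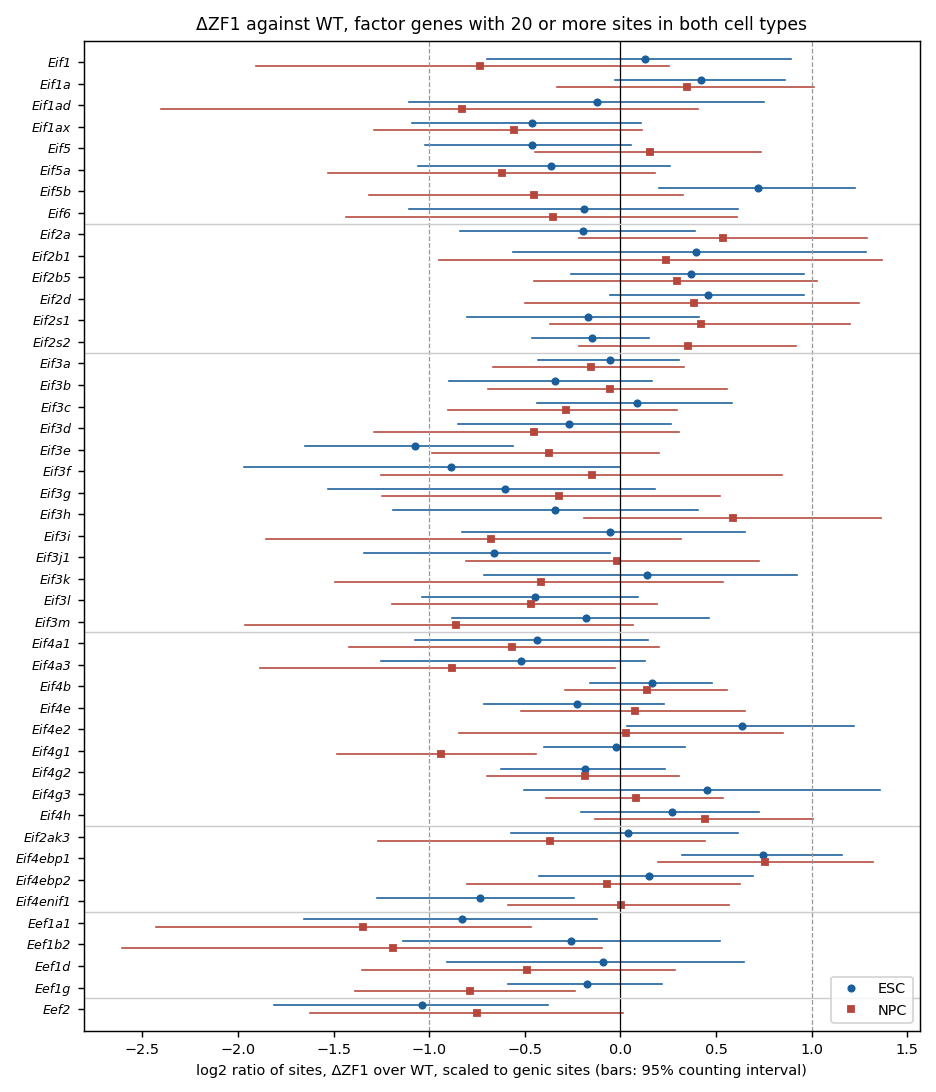
Scaled log2 ratio of sites, ΔZF1 over WT (x axis), for factor genes with WT and ΔZF1 sites summing to 20 or more in both cell types (y axis, ordered by role), with ESCs as circles, NPCs as squares, 95% counting intervals as bars and the limits of -1 and 1 dashed. Eif3e and Eef2 in ESCs and Eef1a1 and Eef1b2 in NPCs lie past the lower limit, and Eif4ebp1 lies above 0 in both.

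The place of the sites within the genes also differed between WT and ΔZF1. Exons held 66.9% of member sites in WT ESCs (65.4 to 68.3), 60.0% in ΔZF1 ESCs (57.7 to 62.1) and 54.2% without UV (51.5 to 57.0). In NPCs they held 72.8% in WT (70.9 to 74.7), 58.7% in ΔZF1 (56.0 to 61.4) and 52.9% without UV (49.4 to 56.4). Other protein-coding genes gave 65.6% in WT ESCs and 67.2% in ΔZF1 ESCs, a change in the opposite direction, and 72.1% and 59.5% in NPCs. Ribosomal protein genes fell from 70.95% to 62.4% between WT and ΔZF1 ESCs, as the members did, and proteasome genes rose from 63.5% to 71.4%. In unscaled counts, ΔZF1 ESCs held 0.419 of the exon sites of WT (0.391 to 0.449) and 0.565 of the intron sites (0.517 to 0.617) in the members. In other genes these ratios were 0.518 and 0.482. In NPCs the members gave 0.473 for exons and 0.892 for introns, beside 0.549 and 0.967 elsewhere. No test of these differences was possible with 1 list per group.

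Density was highest in coding sequence and 5′ UTRs. In WT ESCs it was 16.3 sites per kb in coding exons, 14.5 in 5′ UTRs, 4.63 in 3′ UTRs and 0.968 in introns. In WT NPCs it was 9.70, 9.60, 2.39 and 0.419, the same order. Without UV it was 3.78, 3.67, 1.16 and 0.412 in ESCs and 2.21, 2.35, 0.747 and 0.265 in NPCs. Coding exons and 5′ UTRs were thus also above 3′ UTRs and introns in the background. The 5′ UTR part of member sites was 9.52% in WT NPCs (8.35 to 10.8) and 4.45% in ΔZF1 NPCs (3.44 to 5.74), while in ESCs it was 7.58% in WT and 8.43% in ΔZF1, with overlapping intervals. The fall in NPCs was shared by other protein-coding genes, from 8.92% to 5.44%, and by ribosomal protein genes, from 17.1% to 10.1%. Few intron sites lay near splice sites. Within 50 bases before an exon start were 4.38% of intron sites in WT ESCs and 6.70% in WT NPCs.

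The same positions were found again more often in factor genes than in other genes. Of the ΔZF1 ESC sites in members, 33.1% (31.0 to 35.2) lay within 5 bases of a WT ESC site, beside 23.9% in other protein-coding genes and 6.15% when the member sites were shifted along the gene. For ΔZF1 NPCs near WT NPCs the shares were 21.5% (19.4 to 23.9), 12.9% and 2.82%, and for WT NPCs near WT ESCs 43.6% (41.5 to 45.7), 27.9% and 5.86%. WT sites near a non-crosslinked site made up 9.36% in ESCs and 7.70% in NPCs, beside 7.55% and 5.51% in other genes and 1.865% and 1.015% for shifted member sites, the non-crosslinked lists being smaller. Shifted sites of other genes gave 4.23% for ΔZF1 ESCs and 2.03% for ΔZF1 NPCs, less than those of the members, and the part of site density in the difference was not tested.

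Over all lists the members held 8790 positions found in 1 list only, 756 found in 2, 210 in 3, 62 in 4, 18 in 5 and 21 in all 6. Of the 21 positions in all 6 lists, non-crosslinked ones included, 11 were within 5 bases of the 5′ end of an annotated small RNA and 4 within 5 bases of a transcript start. In other protein-coding genes, 659 positions were in all 6 lists, of which 181 stood at small RNA ends and 184 at transcript starts. Small RNA ends also led the scores. Of the 20 highest-scoring member sites per list, between 12 and 15 stood there in every list, with or without UV.

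The 13 small RNA positions found in 5 or 6 lists belonged to 6 genes, Eef1b2, Eef2, Eif4a1, Eif4g1, Eif4g2 and Eif5. The Eif4g2 position printed above had the highest score that any list holds, 708.4, in all 3 ESC lists, and 470.2, 269.3 and 535.7 in WT NPCs, ΔZF1 and without UV. The Eif4a1 position at Gm25835 scored 570, 550 and 547 in ESCs and 508.6, 331.5 and 545.1 in NPCs. The value of 708.4 is the ceiling of the score, so the ESC scores of the Eif4g2 position cannot be ranked. Over the 13, the median score was 310 in WT ESCs, 373 in ΔZF1 ESCs, 334 without UV, 216 in WT NPCs and 197 in NPCs without UV. In ΔZF1 NPCs it was 96.4 over the 11 that were present, with 2 absent.

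The 8 recurring 5′ UTR positions before a run of at least 5 pyrimidines lay in Eef1a1, Eef1b2, Eef2, Eif3h, Eif3k and Eif4b, with 2 neighbouring bases each in Eef2 and Eif4b. A run of that length followed 47.1% (26.2 to 69.0) of the 17 5′ UTR positions found in 5 or 6 lists, 23.3% (16.8 to 31.3) of those in 2 to 4 lists, 9.35% of those in 1 list and 6.43% of all 5′ UTR bases of the members. All 8 were also present without UV in ESCs, and 7 of them in NPCs. Their choice required this in part, since a position in 5 or 6 lists is in at least 1 non-crosslinked list. Crosslinks and RNA ends cannot be told apart at such positions.

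At the pyrimidine positions, the median ΔZF1 score was near that of WT in ESCs and lower in NPCs, a contrast that was not tested. The median was 147 in WT ESCs, 151 in ΔZF1 ESCs and 60.6 without UV, over all 8. In NPCs it was 132 in WT over all 8, 7.46 in ΔZF1 over the 6 present and 25.5 without UV over the 7 present. The Eef1a1 position scored 458.8, 403.6 and 216 in ESCs and 475.2, 7.72 and 148.1 in NPCs. At Eef1b2 it scored 322.8, 215.7 and 165 in ESCs and 193.1 in WT NPCs, was absent in ΔZF1 NPCs and scored 25.5 without UV. At neighbouring bases of Eef2 the scores in WT and ΔZF1 NPCs were 219.2 and 112.6 at the first and 225.3 and 1.10 at the next, so the size of the fall differed widely between positions. The median of the score ratio, ΔZF1 over WT, was 0.958 in ESCs over 8 positions and 0.0614 in NPCs over the 6 present in both lists. For small RNA ends the ratio was 1.09 in ESCs and 0.565 in NPCs, where 11 of 13 were present in both. Scores are not scaled to depth, and the ΔZF1 NPC list was smaller than the WT NPC list.

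**Figure D5:**
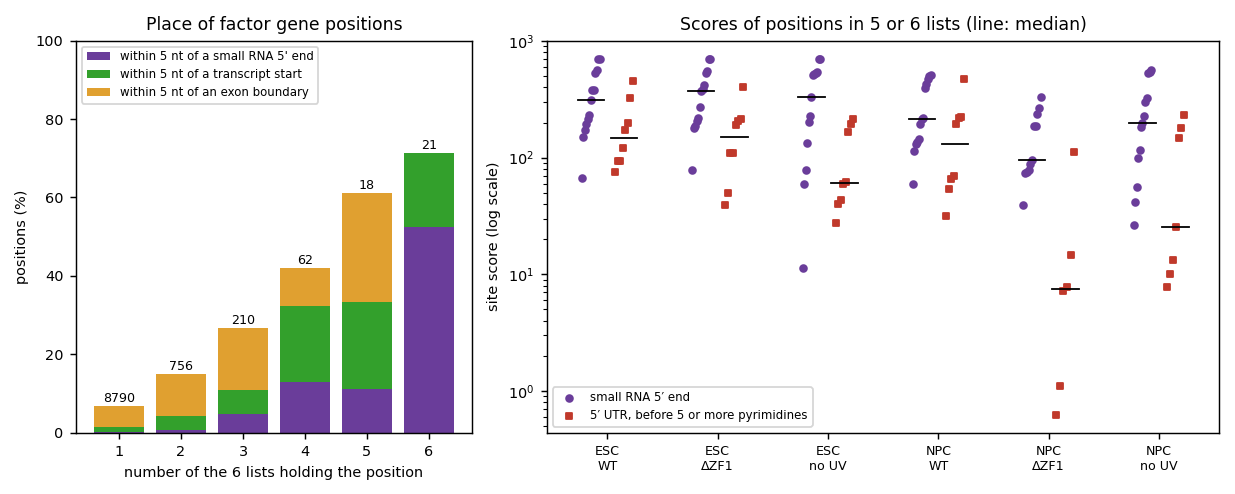
Left, share in percent (y axis) of factor gene positions within 5 nt of a small RNA 5′ end, a transcript start or an exon boundary, by the number of lists that hold the position (x axis, number of positions above the bars). Right, score (y axis, logarithmic) of positions in 5 or 6 lists at small RNA ends (circles) and before pyrimidine runs in 5′ UTRs (squares) in each list, with medians as lines, where the ΔZF1 NPC median of the pyrimidine positions is 7.46 (6 of 8 present) against 132 in WT NPCs.

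Positions found with UV only were more often on uridine, as were the sites of the UV lists in general. Some stood at places like those above, such as transcript starts in Eef1d and Eif4a3 and a small RNA 5′ end in Eif2ak3. The 24 positions in all 4 UV lists and neither non-crosslinked list were on uridine in 19, whereas those in all 6 lists were on uridine in 9 of 21. The coding uridine of Eif5a printed above scored 100.5 in WT ESCs, 37.3 in ΔZF1 ESCs, 97.4 in WT NPCs and 49.3 in ΔZF1 NPCs. That of Eif3e scored 22.9, 4.24, 23.4 and 6.05 in the same order, lower under ΔZF1 in both cell types. That of Eif4g1 scored 46.1 and 0.658 in ESCs but 18.7 and 48.2 in NPCs, so ΔZF1 was lower in ESCs and higher in NPCs.

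ESCs and NPCs were compared within WT to find contacts that change on differentiation. Of 56 members, 2 were past the upper limit and 3 past the lower in WT NPCs against WT ESCs, or 3.57% and 5.36%, beside 11.5% and 10.4% of 6730 genes. The summed sites differed by -0.02 on the log2 scale (-0.10 to 0.05). Without UV, 1 of 33 members was past the upper limit and 3 past the lower, beside 11.1% and 12.3% of 3726 genes. The other members tested lay within the limits.

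Among scaffold genes, Eif4g3 held 22, 15 and 39 sites in ESCs and 90, 63 and 60 in NPCs. Its NPC to ESC log2 ratio was 2.88 in WT, with 2.27 as the lower end of its interval, and 1.17 (0.61 to 1.76) without UV. Its paralog Eif4g1 gave 0.28 (-0.06 to 0.62) in WT. Eif2s2 was lower in WT NPCs, with 53 sites against 272 and a log2 ratio of -1.44 (-1.88 to -1.04), and without UV the ratio was -1.65. With exon sites alone Eif2s2 no longer passed the limit in WT. In both genes the direction was the same with and without UV. Past the lower limit without UV were also Eif4e2, a cap-binding relative of eIF4E, at -1.33 (-2.74 to -0.25) from 6 sites against 25, and Eif1a at -1.27 (-2.22 to -0.48) from 13 against 49. Next highest after the genes past the upper limit were Eef1d in WT at 0.75 (0.12 to 1.39), and Eif3h and Eef1g without UV at 0.79 and 0.76. The lowest ratios were -2.91 for Eif2ak2, which encodes the double-stranded RNA-dependent eIF2α kinase PKR, from 1 site against 27, and -2.10 for Eef1akmt2, an eEF1A methyltransferase, from 2 sites against 23.

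Eif4a2 (ENSMUSG00000022884.15, chr16:23107444-23114136, plus strand), the second gene of the eIF4A helicase, stood apart from the other members. It held 0 sites in WT ESCs, 0 in ΔZF1 ESCs and 15 in non-crosslinked ESCs, and 44, 22 and 14 in NPCs. The counting interval of its scaled log2 ratio, WT NPCs over WT ESCs, began at 4.42, but without UV the ratio of NPCs to ESCs was 0.47 (-0.56 to 1.49). Of 4301 genes with at least 10 non-crosslinked ESC sites, Eif4a2 alone had none in both ESC UV lists, and in NPCs 2 of 3154 genes did, Nhsl1 and Gm15564. Of its 15 non-crosslinked ESC sites, 10 stood at 5′ ends of small RNAs such as Snord2 and Snora81, the highest scoring 708.4. On the same strand, the nearest WT ESC sites lay 173159 bases before the gene and 1415179 bases after it, and in WT NPCs 235314 before and 181 after. Rfc4, the neighbour on the opposite strand, held 31 sites in WT ESCs and 19 in WT NPCs. Whether the gap comes from the RNA or from the making of the lists was not tested.

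The paralogs differed in level, and no difference between paralogs was tested. Eif4a1 held 79, 29 and 26 sites in ESCs and 39, 17 and 14 in NPCs, unlike Eif4a2 above. Eif1a held 99, 67 and 49 against 38, 32 and 13, and its X-linked form Eif1ax held 83, 30 and 19 against 52, 23 and 19. Both encode the eIF1A protein that binds the A site. The ΔZF1 to WT log2 ratio of Eif1a was 0.42 in ESCs and 0.35 in NPCs, and that of Eif1ax -0.46 and -0.56, with intervals that all included 0. Eif3j1 held 80, 25 and 25 sites against 34, 22 and 26, and Eif3j2 held 11, 1 and 4 against 8, 4 and 1. Eif2s3x held 20, 9 and 14 against 8, 4 and 7, and Eif2s3y none. Eif5a held 65, 25 and 15 against 36, 15 and 3, and Eif5a2 held 22, 11 and 3 against 6, 7 and 0. Near-identical paralogs and processed copies can share reads, and how such reads were assigned is not given in the sources used here.

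The inhibitors of translation as a group held 420 sites in WT ESCs and 192 in WT NPCs over 9 genes. Of the eIF2α kinases, Eif2ak3 (PERK, the sensor of unfolded proteins) held 66, 34 and 16 sites in ESCs and 32, 16 and 11 in NPCs. Eif2ak1 (HRI, the heme-regulated kinase) held 21, 7 and 5 against 6, 3 and 4, and Eif2ak4 (GCN2, the sensor of uncharged tRNA) held 4, 3 and 5 against 6, 5 and 2. Only Eif2ak3 among the kinases held over 30 sites in both WT lists. Eif2ak2 held 27, 9 and 15 sites in ESCs and 1, 8 and 4 in NPCs, with more sites under ΔZF1 than under WT in NPCs. Of the eIF4E-binding proteins, Eif4ebp2 held 70, 39 and 35 against 40, 25 and 22, and Eif4ebp3 held 3, 4 and 0 against 1, 1 and 0. Eif4enif1, which carries eIF4E into the nucleus, held 130, 39 and 54 against 59, 39 and 42, with a ΔZF1 to WT log2 ratio of -0.73 (-1.27 to -0.24) in ESCs, where the genes of its chromosome had a median of -0.47. Eef2k, the kinase that inhibits eEF2, held 2 sites in non-crosslinked ESCs and none elsewhere.

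Other genes of translation gave medians in the same direction as the members, except for mitochondrial translation genes under ΔZF1 in ESCs. Of 27 listed genes of translation termination, poly(A) binding, recycling and mTOR signalling, 26 were in the annotation. With UV against without, their median log2 ratio was 0.09 in ESCs, with 1 of 23 past the upper limit and 2 past the lower. It was 0.29 in NPCs, with 2 of 20 past the upper and 0 past the lower. Of all genes, 8.12% were past the upper and 6.60% past the lower limit in ESCs, and 10.5% and 6.51% in NPCs. For ΔZF1 against WT the medians were -0.14 in ESCs and -0.33 in NPCs. In ESCs 1 of 23 was higher and 2 lower, and in NPCs 0 of 21 higher and 1 lower. Of all genes, 6.84% were higher and 5.45% lower in ESCs, and 5.76% and 7.36% in NPCs. For 6 genes of mitochondrial translation, medians with UV were 0.49 in ESCs over 5 genes tested and 0.87 in NPCs over 3. Their ΔZF1 to WT medians were 0.15 over 5 in ESCs and -0.79 over 4 in NPCs. Ribosomal protein genes lay higher with UV, with medians of 0.58 in ESCs and 0.75 in NPCs. By score, member sites had a median rank at percentile 58.5 in WT ESCs and 60.1 in WT NPCs of all sites, beside 85.8 and 87.8 for ribosomal protein genes.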

How the data were processed

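Per the methods, the authors used Flexbar for demultiplexing and trimming, STAR for alignment (mm10), UMI-tools for collapsing PCR copies by UMI and bedtools for shifting read starts, then merged each group's libraries and called sites with PureCLIP (versions not given in the sources used here). The deposited values are the PureCLIP score of each single-base site, neither scaled to depth nor pooled further. The lists hold 107227 to 451137 sites on the analysed chromosomes, and the read depth behind them is unknown. Sites inside each gene body on its strand were counted against GENCODE mm10 genes, where a position in a coding exon took precedence over UTRs and introns, and transcript starts also came from a RefSeq table (GRCm38.p6). Ratios were scaled to genic sites (pseudocount 1, at least 20 sites in both lists together). Intervals are Wilson 95% intervals of the share of sites, carried over to ratios without the pseudocount, and cover counting error only. Calculations used Python 3.11.15, numpy 2.4.6, pandas 2.3.3, scipy 1.17.1 and pysam 0.24.0, and were tested on simulated data.

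Named were the 5 members with most sites in each WT list, those with at least 50 sites past a limit, the 3 highest and 3 lowest ratios per comparison, the inhibitors and the paralog pairs, and sequence windows of 10 nt on each side. The members and gene lists were chosen with earlier results of these data known. The kinds of recurring position, the examples shown for them and the setting without positions in 5 or 6 lists were chosen after the data had been seen. The list of 5′ TOP genes came from general knowledge.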

Additional observations from a re-analysis of the deposited data

How the results depend on the processing

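No paired analysis was possible because merging of libraries preceded site calling, and leaving out a replicate was impossible for the same reason. The summed NPC to ESC WT ratio, -0.02 with an interval that includes 0, was 0.03 with scores under the median left out and 0.002 with uridine sites alone. No other direction reversed. A pseudocount of 0.5, run for the counts of members alone, left them as they were. Scaling by the median ratio and scaling to the own chromosome, run for summed ratios and counts, and, chosen after the data had been seen, leaving out positions in 5 or 6 lists, run for these and for exon and uridine shares, kept the directions. Of the counts, ESC WT to non-crosslinked went from 6 to 4, 5 and 8 in this order, ESC ΔZF1 from 2 to 3 under the last 2 and NPC ΔZF1 from 2 to 3 with the own chromosome. Leaving out scores under the median gave summed log2 ratios of 0.45 and 0.60 for WT to non-crosslinked in ESCs and NPCs and -0.30 and -0.47 for ΔZF1 to WT, members past a limit of 16 (ESC WT to non-crosslinked), 7 (ESC ΔZF1) and 11 (NPC ΔZF1), exon shares of 75.4% (ESC WT), 66.1% (ESC ΔZF1) and 80.2% (NPC WT), and uridine shares of 68.0%, 56.0%, 72.8% and 64.2% (ESC WT, ESC ΔZF1, NPC WT, NPC ΔZF1). Uridine sites alone gave 0.40 for NPC WT to non-crosslinked and 4 members in NPC ΔZF1, all lower, of 42, against 7.545% of all genes. With no scaling, the ratios, which then follow the size of the lists, were 1.698, 1.45, -1.10, -0.77 and, for NPC to ESC WT, -0.92, with 48, 36, 36, 18 and 25 members past a limit. Of all genes, 82.8% and 63.5% were then higher in the first 2 comparisons, 47.1% and 28.4% lower in the next 2, and 41.95% lower in the last, so these counts say little about the members. Exon sites alone gave 0.34 for ESC WT to non-crosslinked and -0.31 for ESC ΔZF1, with 4 of 42 members higher in NPC WT to non-crosslinked (all genes 9.08%), 1 of 53 lower in ESC ΔZF1 (6.08%), 5 of 44 lower in NPC ΔZF1 (6.61%) and 3 of 54, 2 higher and 1 lower, in NPC to ESC WT (8.36% and 8.89%), and uridine shares of 26.4% (ESC) and 24.6% (NPC) without UV and 63.7% in NPC ΔZF1. Sites in 1 gene alone left 1 of 45 members, lower, in NPC ΔZF1 (7.495%). A minimum of 10 sites gave 4 of 58 in ESC ΔZF1, 1 higher and 3 lower (8.93% and 7.365%). A minimum of 50, where fewer genes are tested, gave 3 of 37 in ESC WT to non-crosslinked, 2 higher and 1 lower (3.23% each way), 2 of 24 higher in NPC WT to non-crosslinked (4.41%), 1 of 32 lower in NPC ΔZF1 (3.04%) and 2 of 43 in NPC to ESC WT, 1 each way (7.05% and 8.94%). Shared sites at the same position alone were 19.2% (ESC ΔZF1 near WT), 12.6% (NPC ΔZF1 near WT), 2.83% and 2.99% (ESC and NPC WT near non-crosslinked) and 27.0% (NPC WT near ESC WT), and within 20 nt 50.9%, 34.7%, 18.9%, 14.5% and 58.2%. Where no construction shows it, the cause was not tested. With 1 list per group, spread between libraries is unknown, and members with under 20 sites support no ratio.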

Other observations

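Outside the member genes, 10 annotated pseudogenes with Eif or Eef names held 10 sites in WT ESCs, 4 in ΔZF1 ESCs and 0 in non-crosslinked ESCs, and 5, 2 and 1 in NPCs. The opposite strand of the members, outside other genes, held 0, 1 and 1 sites in ESCs and 1, 3 and 1 in NPCs.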
